A study of Mus musculus with 12 samples.

Results

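Salivary gland rudiments homozygous for a deletion of Fgfr2b were compared with heterozygous rudiments, 2 libraries against 2. The summed level of mesenchymal genes was similar in both groups. Fgfr2b is the epithelial splice form of FGF receptor 2, and the deletion was driven by K14Cre, a Cre recombinase under the keratin 14 promoter, which is active in epithelial cells and not in the surrounding mesenchyme. All autosomal genes annotated as protein-coding were members, without genes of chromosomes X and Y and without pseudogenes. These were 20675 of the 52636 gene identifiers in the count table, and 13256 of them passed the filter on low counts.

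The series holds 12 RNA-seq libraries of mouse salivary glands, dissected from E13.5 embryos and kept for 2 days on membranes in culture. The heterozygous (HET) and homozygous (HOM) glands carried 1 or 2 deleted copies of Fgfr2b and were untreated. The 2 untreated wild-type (WT) libraries are littermate controls, and whether HET and WT glands carried Cre is not given in the sources used here. A further 3 wild-type libraries had the vehicle DMSO and 3 had SU5402, an inhibitor of FGF receptor kinases, at 2.5 µM. Each group's libraries share the first number of their names (9 for HET, 10 for HOM, 3 for WT, 2 for DMSO and 6 for SU5402), and what that number stands for is not given in the sources used here. The p-values therefore measure the spread between these libraries, which may be technical, at least within HET and HOM.

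Branching of the embryonic salivary gland depends on FGF10 and FGF7, made by the mesenchyme and received by FGFR2b on the epithelium. Receptor signalling through the ERK pathway is read out by ETS factors such as ETV4 and ETV5 and by feedback inhibitors such as the Sprouty and DUSP proteins. The epithelium itself divides into end buds, from which acini form, and ducts, whose cells are joined by tight junctions, adherens junctions and desmosomes.

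The HET and HOM libraries held between 11679114 and 22322182 counts each. Within each genotype the log2 levels of the members correlated across genes at 0.992 in HET and 0.994 in HOM, against 0.985 to 0.987 between genotypes, and genes are not independent replicates. Counts of Xist and of Y-linked genes showed both HET libraries to be male and both HOM libraries to be female, so genotype and sex cannot be told apart here. By the same counts both WT libraries were male and the SU5402 libraries female. DMSO replicates 1 and 3 were female and replicate 2 male, so the DMSO libraries did not all come from 1 embryo. Counts of whole genes do not separate the splice forms of Fgfr2, so the total of that gene does not check the deletion. Levels are in CPM, counts divided by the TMM-scaled library size. Fgfr2 was at 86.2 and 99.9 CPM in HET and 89.2 and 94.4 in HOM.

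Mesenchymal content was close in the 2 groups. The 16 tested genes of 19 listed mesenchymal genes summed to 4551 and 4137 CPM in HET and 4579 and 4835 in HOM. The higher HET library was thus just under the lower HOM library. The WT libraries stood lower, at 2798 and 2970 CPM. None of the 16 tested mesenchymal genes passed the test, and their median log2 change was 0.17. With the libraries scaled to the pan-epithelial list 11 of them rose. The 20 tested skeletal muscle genes summed to 145 and 262 CPM in HET and 268 and 295 in HOM, so both HOM libraries were higher. None of the 20 passed the test, but 19 lay above 0 and their median log2 change was 0.46. Epithelial content was not matched: 21 pan-epithelial genes summed to 3234 and 2969 CPM in HET and 2339 and 2478 in HOM. In bulk libraries fewer epithelial cells and less RNA per epithelial cell cannot be told apart. Schwann cell and neuronal genes summed to 453 and 452 CPM in HET and 536 and 582 in HOM. The macrophage list summed to 46.1 and 53.3 CPM in HET and 63.4 and 76.7 in HOM. The erythroid list summed to 6.59 and 9.4 CPM in HET and 17.7 and 18.1 in HOM. The part of these shifts in the gene changes was not tested.

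**Figure D1:**
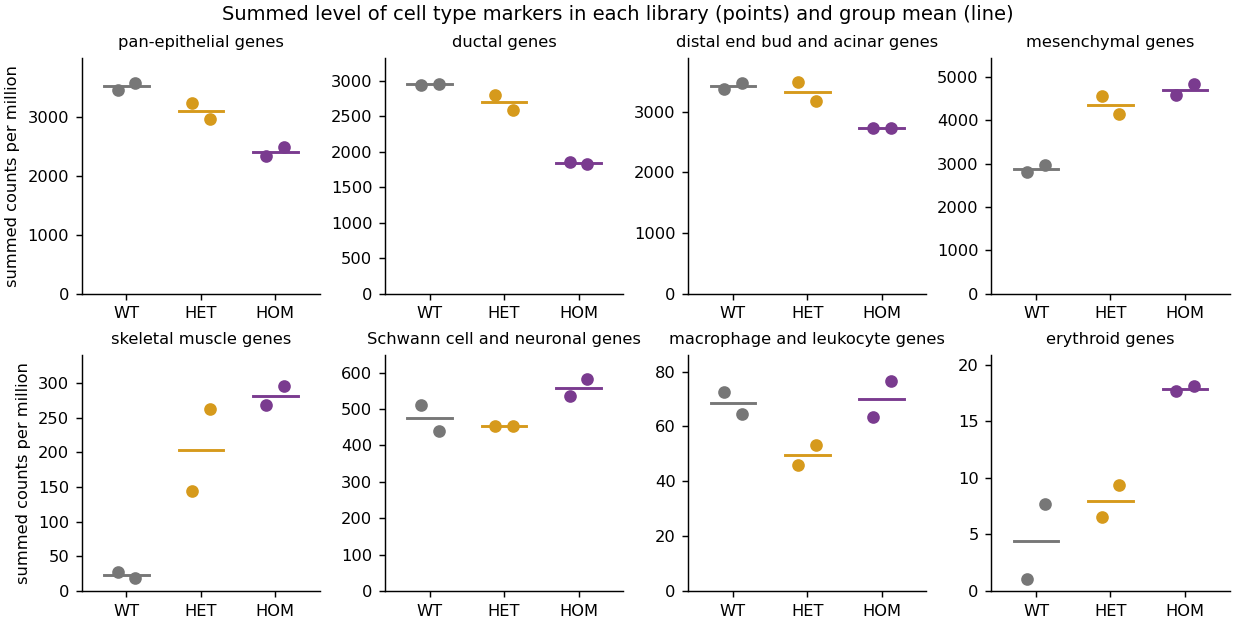
Summed level (CPM, axis from 0) of the marker genes of 8 cell types or regions in the WT, HET and HOM libraries. Points are libraries and lines are group means of 2. Mesenchymal sums are alike in HET and HOM, while the epithelial, ductal and end bud sums are lower in both HOM libraries.

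The genes lower in HOM included secreted products, ductal keratins and channels, junction proteins and vesicle motors of epithelial cells, and the genes higher in HOM included a group of histone genes, Etv4, Etv5, Ngfr and several guidance and matrix genes. Of the 13256 members tested, 205 (1.55%) passed an adjusted p of 0.05 in edgeR's quasi-likelihood test. In HOM 82 were higher (0.619% of those tested) and 123 were lower (0.928%). A change of at least 2-fold was reached by 26 of the higher genes and 39 of the lower ones. The median log2 change over all members tested was 0.00144. For all 205 genes the HET and HOM libraries did not overlap. The calls were made on these same libraries, so this is not separate support, and the share over all members was not counted.

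The count of calls rested on all 4 libraries. It was 77 without HET replicate 1, 45 without HET replicate 2, 45 without HOM replicate 1 and 16 without HOM replicate 2. With the sex of the library as a covariate 31 genes were called, 10 of them among the 205. Only the DMSO group held both sexes, so that fit took the sex effect from DMSO replicate 2 (male) against replicates 1 and 3 (female). A call kept in it does not separate genotype from sex. Of the 68 called genes named here, 7 kept their call whichever 1 of the 4 libraries was left out: Col2a1, Eno1b, Hist1h3f, Hist1h4m, Hist4h4, Myof and Pianp. With sex as a covariate 7 kept it: A2ml1, Eif3j2, Eno1b, Hist1h3f, Hist1h4f, Hist4h4 and Ltf. With the libraries scaled to the pan-epithelial list the median of all members moved to 0.36, and 4183 genes were called higher and 75 lower. Of the 68 named genes 47 kept their call with it.

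**Figure D2:**
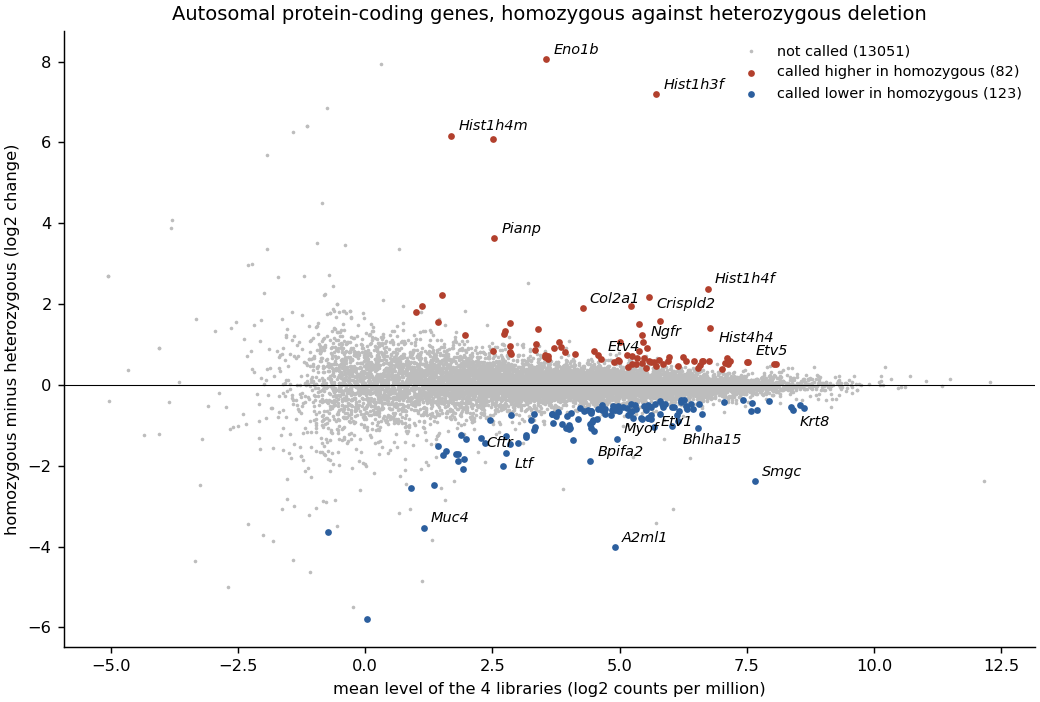
Log2 change from HET to HOM (y axis) of every tested autosomal protein-coding gene against its mean level in the 4 libraries (x axis, log2 CPM). Coloured points are the 82 genes called higher and the 123 called lower. Etv4 and Etv5 lie above 0, and Etv1, Smgc, Cftr and Krt8 below it.

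Ductal genes lay lower in HOM. Of 26 tested ductal genes 5 fell, none rose, and all 26 had a log2 change below 0, with a median of -0.71, or -0.35 and 4 that fell with scaling to the pan-epithelial list. Over all members 0.928% fell. The 5 were Cftr, Ltf, Ehf, Krt8 and Krt18.

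Cftr, the apical chloride channel of ducts, was at 11.7 and 13.7 CPM in HET and 5.12 and 5.3 CPM in HOM. Both HOM libraries stood under the lower HET library, and the log2 change was -1.28 (SE 0.17, adjusted p = 0.00156). Ltf encodes lactoferrin, an iron-binding protein of saliva. It was at 7.65 and 13.4 CPM in HET and 2.4 and 3.81 in HOM, a log2 change of -1.69 (SE 0.28, adjusted p = 0.006). The keratins of simple epithelia fell by less: Krt8 was at 447 and 370 CPM in HET and 264 and 271 in HOM, a log2 change of -0.61 (SE 0.12, adjusted p = 0.0176). Its partner Krt18 was at 415 and 369 CPM in HET and 260 and 275 in HOM. Ehf, an ETS-family factor of epithelial cells, was at 439 and 437 CPM in HET and 327 and 293 in HOM, a log2 change of -0.50 (adjusted p = 0.0129).

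Uncalled ductal members lay in the same direction. Krt7 had a log2 change of -0.77 (adjusted p = 0.194), and the subunit Scnn1a of the epithelial sodium channel had -0.96 (adjusted p = 0.289). Krt19, a further ductal keratin, was at 55.0 and 65.7 CPM in HET and 35.8 and 43.7 in HOM (adjusted p = 0.299). Without 1 library at a time the number of ductal genes that fell ranged from 0 to 2, while the median stayed between -0.80 and -0.63. Of 24 tested genes of saliva ion and water transport 2 fell (Cftr and the potassium channel gene Kcnma1), and the median was -0.48, or -0.12 with scaling to the pan-epithelial list. Aqp5, the water channel of the secretory cells, was at 84.9 and 72.8 CPM in HET and 51.1 and 54.7 in HOM and did not pass (adjusted p = 0.252).

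Among junction genes, calls fell on the desmosome and the tight junction. Desmosomes anchor keratin filaments at cell contacts through desmosomal cadherins, plakophilins and plakins. Of 14 tested desmosome genes 5 fell, where 0.928% of all members did, none rose, and the median was -0.60. Scaled to the pan-epithelial list, none fell, 1 rose and the median was -0.24, and with library totals 2 fell. The plakophilin gene Pkp2 was at 26.6 and 26.5 CPM in HET and 17.8 and 16.4 in HOM, a log2 change of -0.64 (SE 0.11, adjusted p = 0.011). The plakin genes Dsp, Evpl and Ppl had log2 changes of -0.56, -0.82 and -0.54. Dsp, which links the junction to keratin, was at 405 and 533 CPM in HET and 321 and 314 in HOM (adjusted p = 0.049). The cadherin gene Dsg2 had a log2 change of -0.43 (adjusted p = 0.02). The cadherin gene Dsg3 was spread widely within HET, at 1.89 and 8.6 CPM, and did not pass.

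Of 30 tested tight junction genes 3 fell, where 0.928% of all members did, none rose, and the median was -0.26. Scaled to the pan-epithelial list, 4 rose, none fell and the median was 0.10, and with library totals none was called. Ocln, which encodes the strand protein occludin, was at 40.0 and 44.8 CPM in HET and 28.6 and 28.2 in HOM, a log2 change of -0.58 (SE 0.11, adjusted p = 0.0122). Cldn4, a claudin, had a log2 change of -0.53 (adjusted p = 0.014). Cgn, for the plaque protein cingulin, had -0.46 (adjusted p = 0.0288). The claudin genes Cldn3 and Cldn7 lay near them, at -0.46 and -0.47, and did not pass.

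None of 22 tested adherens junction genes and none of 19 apical-basal polarity genes passed edgeR's test, where 1.55% of all members did. Cdh1, for E-cadherin, was at 536 and 542 CPM in HET and 414 and 430 in HOM, a log2 change of -0.35 (SE 0.11, adjusted p = 0.15). Cdh3, for P-cadherin, had 0.25 (adjusted p = 0.405). Without 1 library at a time 0 to 1 desmosome gene and 0 to 1 tight junction gene fell. Of the 21 pan-epithelial genes 4 fell: Spint1, Cldn4, Krt8 and Krt18. The summed pan-epithelial level, given above, was lower in both HOM libraries as well, and with the libraries scaled to that list Cdh1 was at 0.01. With that scaling none of Ocln, Cldn4, Cgn, Pkp2, Dsp, Evpl, Ppl, Dsg2, Krt8, Krt18 and Ehf kept its call, while Cftr and Ltf did.

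**Figure D3:**
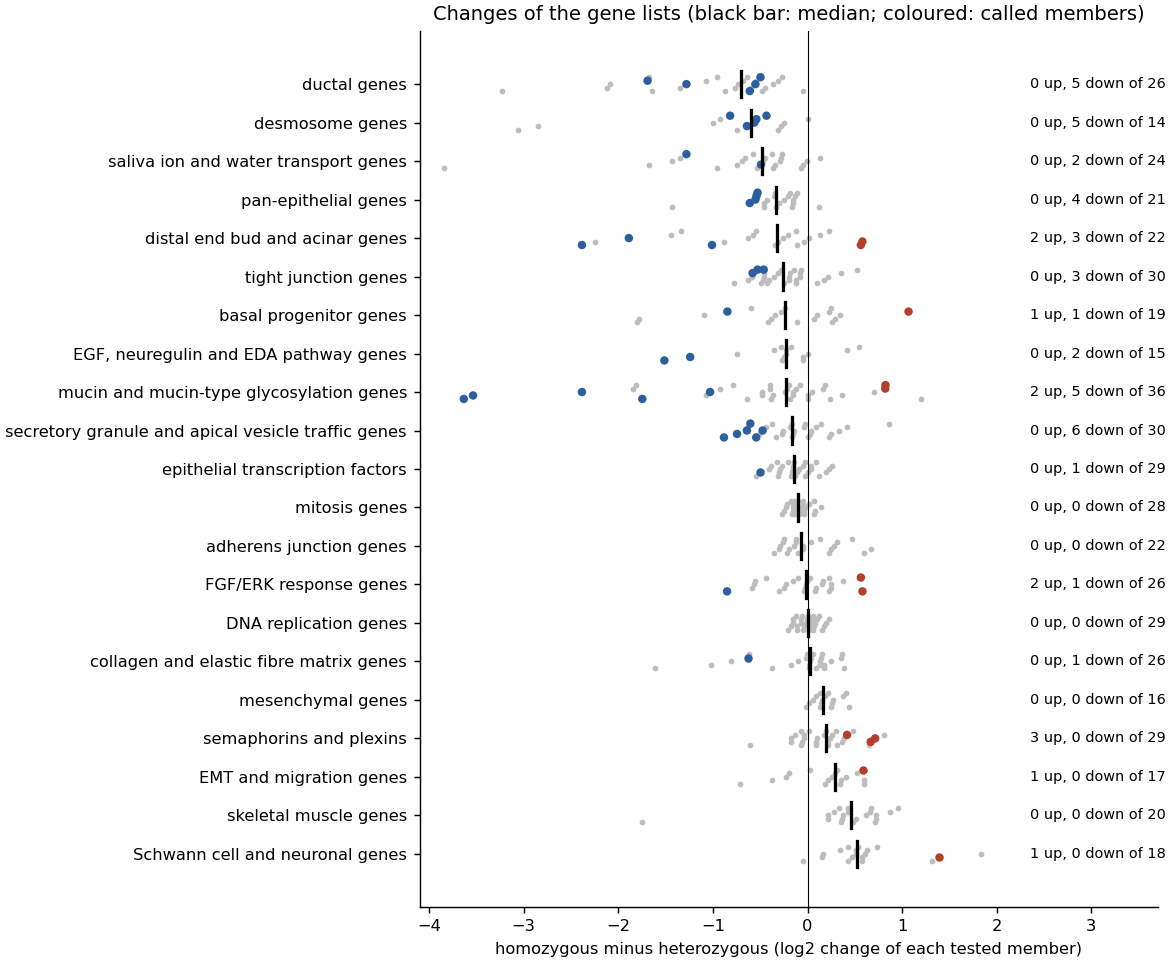
Log2 change from HET to HOM of each tested member of 21 gene lists, with the median as a black bar and called members coloured. Of the lists shown, ductal and desmosome genes lie furthest to the left, and the FGF/ERK list is centred near 0 with 2 members called up and 1 down. The list of stratified epithelium, with a median of -0.87, is not shown.

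In the list of end bud and acinar genes the called secretory genes fell and the 2 that rose were ETS factors. Of 22 tested genes 3 fell (Smgc, Bpifa2 and Bhlha15) and 2 rose (Etv4 and Etv5), with a median of -0.33. Among all members 0.928% fell and 0.619% rose. Under pan-epithelial scaling 4 fell, 4 rose and the median was 0.04. Smgc encodes the mucin-like submandibular gland protein C. It was at 414 and 264 CPM in HET and 70.1 and 60.2 in HOM, which is 5.22-fold lower (log2 change -2.38, SE 0.51, adjusted p = 0.0288). Its locus overlaps Muc19 in the annotation, and reads of the 2 cannot be told apart where they share exons. Bpifa2, a secreted salivary protein, was at 44.1 and 23.1 CPM in HET and 9.92 and 8.44 in HOM, and its WT libraries, at 9.89 and 11.9 CPM, lay close to HOM (adjusted p = 0.0463). Bhlha15, which encodes the secretory cell factor MIST1, was at 96.4 and 78.6 CPM in HET and 43.0 and 43.9 in HOM, a log2 change of -1.01 (SE 0.22, adjusted p = 0.0306).

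Progenitor genes of the end bud were not called. Kit, a receptor of end bud progenitors, was at 76.5 and 78.4 CPM in HET and 77.2 and 79.0 in HOM, a log2 change of 0.01 (SE 0.11). Sox10 had 0.23 (adjusted p = 0.476) and Sox9 had -0.21 (adjusted p = 0.432). Dcpp1, a secreted acinar product, had -0.11 (adjusted p = 0.898). None of these 4 passed edgeR's test, and a p over the threshold does not show equal levels.

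A minority of granule traffic genes fell, in a list added after the values had been seen. Of 30 tested genes 6 fell, none rose and 24 did not pass, 10 of the 30 lay above 0, and the median was -0.16. Among all members 0.928% fell. With scaling to the pan-epithelial list 8 rose, 2 fell and the median was 0.20, and with library totals none was called. Mlph, the melanophilin adaptor between RAB27 and myosin, was at 97.5 and 87.4 CPM in HET and 48.3 and 51.8 in HOM, a log2 change of -0.88 (SE 0.13, adjusted p = 0.00385). Rab3d, a GTPase of secretory granules, was at 95.3 and 79.0 CPM in HET and 50.8 and 53.1 in HOM (adjusted p = 0.0154). The myosin motor genes Myo5c and Myo5b had log2 changes of -0.64 and -0.54. Exph5, an effector of RAB27, had -0.60. Rab11fip1, for an effector of RAB11 on recycling endosomes, had -0.47. Rab27a, the GTPase bound by melanophilin, had -0.15 and did not pass. With scaling to the pan-epithelial list Mlph and Rab3d kept their calls, and Myo5c, Myo5b, Exph5 and Rab11fip1 lost theirs.

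Mucin-type genes, also listed after the values had been seen, held large falls at low levels. Of 36 tested 5 fell (Muc16, Muc4, Smgc, Agr2 and Galnt7) and 2 rose (Fut2 and Fut10), and the median was -0.23. Among all members 0.928% fell and 0.619% rose. Under pan-epithelial scaling 5 fell, 4 rose and the median was 0.14. Muc4, a membrane mucin, was at 5.6 and 2.65 CPM in HET and 0.24 and 0.414 in HOM, which is 11.6-fold lower (SE of the log2 change 0.75, adjusted p = 0.0282). Agr2, a disulfide isomerase of mucin-producing cells, was at 3.63 and 5.31 CPM in HET and 1.2 and 1.41 in HOM. Galnt7, which adds the sugar that starts mucin-type chains, was at 68.3 and 67.9 CPM in HET and 38.3 and 28.9 in HOM. Fut2 and Fut10, which encode fucosyltransferases, had log2 changes of 0.82 each. Fut2 was at 5.15 and 5.31 CPM in HET and 8.64 and 9.76 in HOM, with WT at 8.86 and 11.3, near HOM. Muc16 was at 1.29 and 0.965 CPM in HET and 0.08 and 0.0827 in HOM, with WT at 0.0732 and 0.216, also near HOM. For Muc4 WT lay between the genotypes, at 1.03 and 1.73 CPM, and for Agr2 it was above HOM, at 4.76 and 8.21. In the stress list Xbp1, a factor of secretory cell endoplasmic reticulum, was the only called gene of 28, at 114 and 96.3 CPM in HET and 67.4 and 71.1 in HOM (log2 change -0.60, adjusted p = 0.0122).

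The FGF/ERK response was split at its transcription factors. Of 26 tested FGF/ERK response genes Etv4 and Etv5 rose, Etv1 fell, and the others did not pass. Among all members 1.55% were called. The median was -0.01, beside 0.00144 for all members. With scaling to the pan-epithelial list 11 rose, 1 fell and the median was 0.35, beside 0.36 for all members, and with library totals none was called. ETV1, ETV4 and ETV5 are the PEA3 subfamily of ETS factors, transcribed in response to FGF signalling.

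Etv4 was at 26.1 and 24.8 CPM in HET and 35.4 and 40.6 in HOM, a log2 change of 0.58 (SE 0.12, adjusted p = 0.0237). Etv5 was at 160 and 138 CPM in HET and 214 and 226 in HOM, a log2 change of 0.56 (SE 0.12, adjusted p = 0.0263). Etv1 was at 57.9 and 68.8 CPM in HET and 38.2 and 32.4 in HOM, a log2 change of -0.85 (SE 0.17, adjusted p = 0.0207). In all 3 genes the WT libraries lay within or near the HET values: WT was at 25.1 and 27.8 CPM for Etv4, 155 and 159 for Etv5 and 54.4 and 63.7 for Etv1. Both WT libraries were male, like HET and unlike HOM. Each of the 3 kept its direction but lost its call whichever 1 of the 4 libraries was left out, with sex as a covariate and with scaling by library totals.

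The feedback inhibitors did not pass edgeR's test in this comparison. Dusp6, the ERK phosphatase, was at 122 and 113 CPM in HET and 123 and 125 in HOM, a log2 change of 0.09 (SE 0.12, adjusted p = 0.861). Spry1, Spry2 and Spry4, for Sprouty proteins, had log2 changes of -0.02, 0.16 and 0.25. Among receptors, Fgfr1 had 0.13 and whole-gene Fgfr2 had -0.02. Of 14 tested receptors and co-receptors 1 rose, Gpc1, a heparan sulfate proteoglycan of the cell surface. It was at 64.6 and 62.6 CPM in HET and 89.0 and 101 in HOM (log2 change 0.58, adjusted p = 0.024). None of 7 tested FGF ligand genes passed, and Fgf10 was at 41.7 and 29.6 CPM in HET and 48.8 and 39.6 in HOM.

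The stretches before the first annotated starts of Etv1 and Etv5 are shown because these related factors moved in opposite directions. They come from RefSeq (GRCm38.p6) and end where annotated exons begin. Capitals mark matches to 4 motifs searched on both strands: the TATA-type TATAAA, the E-box CAGCTG, the grainyhead-type AACCNGTT and the ETS-type CCGGAAG.
Etv1, chr12:38779832-38780081, plus strand: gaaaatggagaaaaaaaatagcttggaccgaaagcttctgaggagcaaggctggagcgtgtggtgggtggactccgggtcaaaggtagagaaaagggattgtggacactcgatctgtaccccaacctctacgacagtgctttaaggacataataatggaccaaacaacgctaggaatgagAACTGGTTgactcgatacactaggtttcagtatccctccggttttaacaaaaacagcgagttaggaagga
Etv5, chr16:22439720-22439820, minus strand: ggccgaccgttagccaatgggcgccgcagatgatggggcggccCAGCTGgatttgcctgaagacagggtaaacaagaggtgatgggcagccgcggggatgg
The Etv1 match is to AACCNGTT, a grainyhead-type motif, 70 bases before the start. The Etv5 match is to the E-box CAGCTG, 207 bases before the start. The Etv5 stretch is 101 bases long and ends short of that start, because annotated exons overlap the rest of the window. The 250 bases before a further annotated start of Etv5, not printed, held no match. Over the 250 bases before each start, AACCNGTT was found in 1.6% of 13218 promoters of tested genes. It was in 3.25% of the 123 promoters that could be matched to fallen genes and in 1.75% of the 57 of risen genes. CAGCTG was found in 12.5%, 17.9% and 14% of them. The ETS-type CCGGAAG was in 12.5% of promoters of tested genes, in 5.69% of those of fallen genes and in none of the 57 of risen genes. TATAAA was in 6.51%, 8.94% and 14%. RefSeq promoters were matched for 89 of 123 fallen and 47 of 82 risen genes, and a match describes letters only.

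Of 15 tested EGF, neuregulin and EDA genes 2 fell, where 0.928% of all members did, and none rose. The median was -0.23, or 0.13 with scaling to the pan-epithelial list. Egf was at 4.24 and 3.78 CPM in HET and 1.28 and 1.49 in HOM, which is 2.85-fold lower (adjusted p = 0.0231). Its WT libraries lay between these, at 2.12 and 2.27 CPM. Btc, for betacellulin, a further EGF receptor ligand, was at 5.6 and 4.74 CPM in HET and 2.4 and 2.03 in HOM (adjusted p = 0.0188). For Btc WT was at 6.23 and 6.59 CPM, above both. Pdgfb, the ligand of platelet-derived growth factor receptors, was at 8.1 and 10.9 CPM in HET and 4.48 and 3.6 in HOM (adjusted p = 0.0133). For Pdgfb WT lay between these, at 4.83 and 6.48 CPM.

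Basal cell genes were called in both directions. Of 19 tested basal progenitor genes 1 rose and 1 fell, where 1.55% of all members were called. Ngfr, the low-affinity neurotrophin receptor, was at 28.3 and 28.6 CPM in HET and 55.0 and 64.0 in HOM, a log2 change of 1.07 (SE 0.16, adjusted p = 0.00431). The gene is also expressed by Schwann cells, whose listed markers were higher in both HOM libraries. Lamb3, a chain of the basement membrane protein laminin-332, was at 28.0 and 32.6 CPM in HET and 16.6 and 17.1 in HOM (log2 change -0.85, adjusted p = 0.0122). Trp63, the basal master factor, had 0.26 (adjusted p = 0.477). Krt5 was at 41.9 and 77.6 CPM in HET and 13.4 and 20.5 in HOM, and WT was at 82.8 and 14.8, so the WT libraries spread more widely than the HET and HOM means (adjusted p = 0.341). Krt14, the gene whose promoter drives the Cre, had -0.60 (adjusted p = 0.619). Of 23 tested genes of stratified epithelium only the plakin genes Evpl and Ppl fell, and the median was -0.87. Without 1 HET or HOM library at a time none of the 23 was called and the median ranged from -1.99 to -0.52, and none was called with a replicate block.

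**Figure D4:**
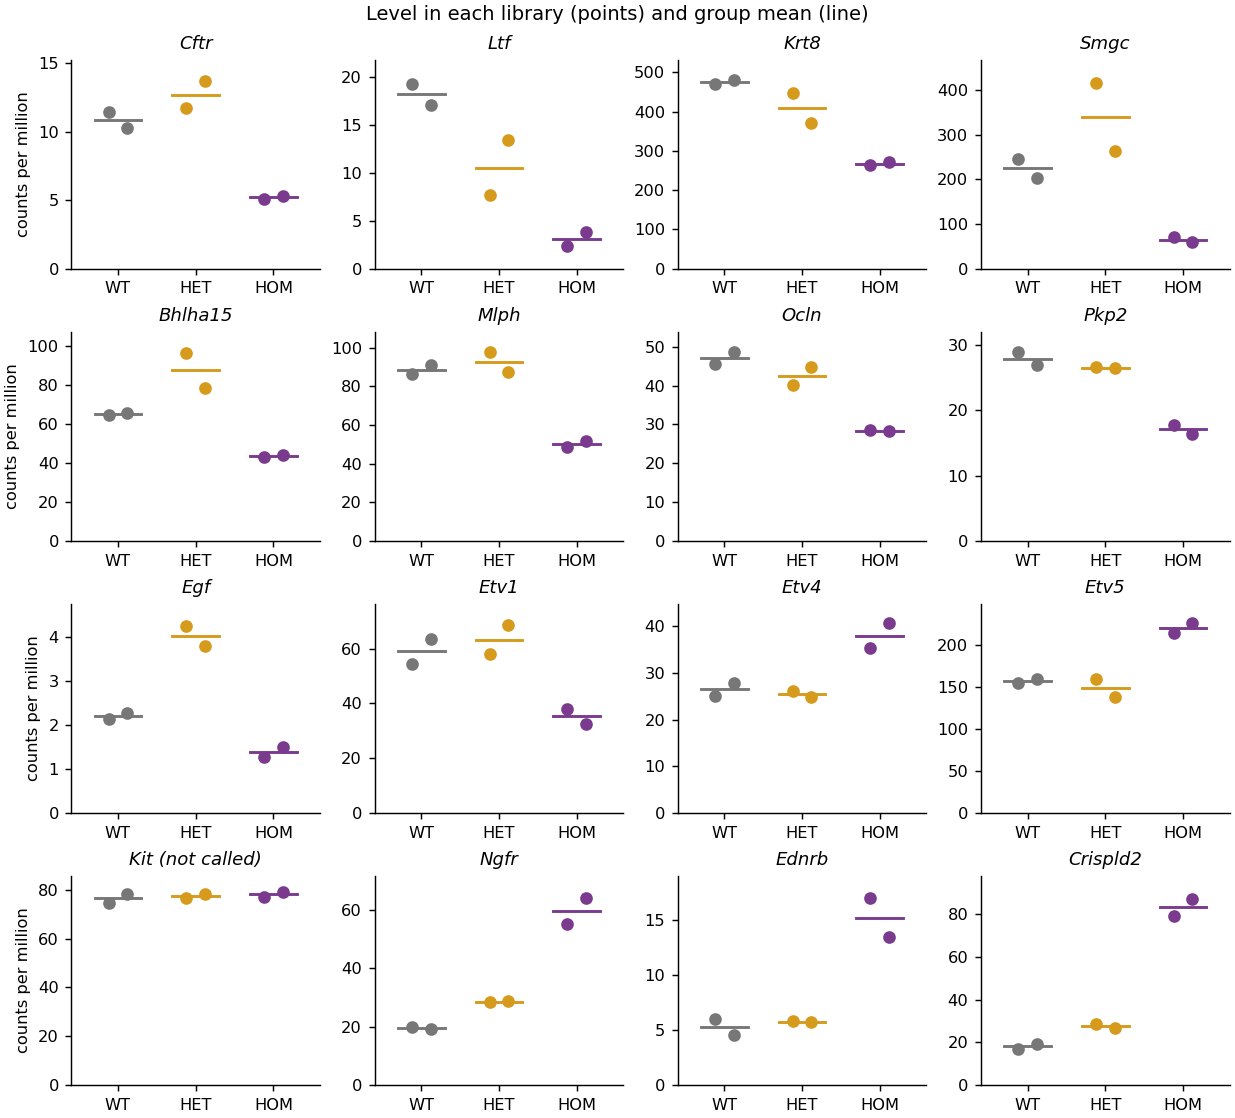
Level (CPM, each axis from 0) of 16 genes in the WT, HET and HOM libraries. Points are libraries and lines are means of 2. HOM lies below HET for Cftr to Etv1, above it for Etv4, Etv5, Ngfr, Ednrb and Crispld2, and at the same height for Kit.

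Further risen genes belonged to the nerve-associated and the EMT and migration lists. Ednrb, the endothelin B receptor of neural crest and Schwann lineages, was the only called gene of 18 tested Schwann and neuronal genes. It was at 5.83 and 5.71 CPM in HET and 17.0 and 13.49 in HOM, a log2 change of 1.39 (SE 0.29, adjusted p = 0.0237). The list median was 0.52, and -0.61 with sex as a covariate. Gpr17, a G protein-coupled receptor of oligodendrocyte precursors, was at 3.03 and 4.42 CPM in HET and 10.5 and 11.05 in HOM. Zeb2, a repressor of E-cadherin, was the only called gene of 17 EMT and migration genes, at 38.5 and 38.0 CPM in HET and 59.8 and 55.1 in HOM (adjusted p = 0.0402). Vim, for vimentin, had 0.36 and did not pass (adjusted p = 0.0671).

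Among semaphorins and plexins, listed after the values had been seen, 3 of 29 tested rose, where 0.619% of all members did, and none fell. Semaphorins are guidance signals read by plexins. Sema3b, a secreted member, was at 109 and 105 CPM in HET and 166 and 173 in HOM, a log2 change of 0.67 (SE 0.13, adjusted p = 0.0199). Sema5b and Sema6a, for membrane-bound members, had 0.71 and 0.42. Crispld2, a secreted cysteine-rich protein, was at 28.7 and 26.9 CPM in HET and 79.3 and 87.0 in HOM, a log2 change of 1.58 (SE 0.25, adjusted p = 0.005). Itga9, for an integrin subunit, was at 56.2 and 60.0 CPM in HET and 90.9 and 97.6 in HOM. Mmp16, a membrane-type matrix metalloproteinase, had a log2 change of 0.74. Col2a1, the collagen of cartilage, was at 8.48 and 7.96 CPM in HET and 26.5 and 34.4 in HOM, and it was the only called gene of 6 tested cartilage and bone genes. Thbs1, for the matrix protein thrombospondin 1, fell, from 253 and 250 CPM in HET to 164 and 163 in HOM.

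Cell cycle genes did not pass the test as lists. None of 29 DNA replication genes and none of 28 mitosis genes was called by edgeR, with medians of 0.01 and -0.11. With scaling to the pan-epithelial list 13 and 6 of them rose, with medians of 0.37 and 0.26. No member of the Wnt, hedgehog, Notch, BMP and TGF-beta or retinoic acid lists was called. These lists hold 36, 10, 18, 23 and 13 tested genes. The share called among all members was 1.55%, so lists of these sizes would hold few calls at that share. Over all members 1801 genes had an unadjusted p under 0.05.

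The largest rises were of histone genes and of gene copies whose reads are hard to place. Of the 12 largest rises 7 were replication-dependent histone genes, whose messages lack a poly(A) tail and are kept in libraries made by ribosomal RNA depletion. In a list made after the values had been seen, 11 of 56 tested histone genes rose, where 0.619% of all members did, and none fell. Of these 11, 10 were among the 48 tested histone genes of chromosome 13. Hist1h3f was at 0.757 and 0.643 CPM in HET, 107 and 102 in HOM and 55.5 and 59.1 in WT. Hist1h4f was at 41.6 and 26.5 CPM in HET, 172 and 184 in HOM and 133 and 123 in WT. Hist4h4, on chromosome 6, was at 63.4 and 56.0 CPM in HET, 156 and 163 in HOM and 163 and 177 in WT. In these 3 genes the HET libraries were low, and WT and HOM were high. Histone genes are near-identical copies, and how shared reads were counted is not given, so the values of single histone genes are uncertain. Without the histone genes 192 members were called, all among the 205.

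Eno1b, a retrogene copy of the enolase gene Eno1 on chromosome 18, had 2 counts in the HET libraries together and 858 in the HOM libraries. The ratio of CPM was 300.0, with a 95% counting interval of 82.8 to 2481. The WT libraries were at 0.293 and 0.108 CPM. Eno1 itself fell, from 268 and 289 CPM in HET to 200.1 and 222 in HOM. Hist1h4m likewise had 2 counts in HET and 219 in HOM. Pianp, a neuronal membrane protein gene on chromosome 6, was at 0.681 and 1.05 CPM in HET, 10.4 and 11.05 in HOM and 5.49 and 7.46 in WT. Eif3j2, a copy of a translation factor gene, was at 11.8 and 9.25 CPM in HET, 4.08 and 3.6 in HOM and 0.439 and 0.216 in WT. For Eno1b the untreated WT libraries were as low as HET, and for Eif3j2 they lay below both other genotypes. The wild-type DMSO libraries were high in both genes, at 54.9, 64.5 and 66.8 CPM for Eno1b and 10.03, 10.5 and 12.5 for Eif3j2. Hist1h4m was at 10.03 and 11.1 CPM in WT and at most 0.164 with DMSO. Untreated and DMSO wild-type libraries thus differed in Eno1b, Eif3j2 and Hist1h4m, with no Fgfr2b deletion in either. For Pianp the DMSO values, from 4.16 to 10.015 CPM, spanned those of WT. The cause was not tested. Reads shared between near-identical copies make the values of Eno1b, Eno1 and Eif3j2 uncertain.

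The largest fall among genes above 5 CPM was of A2ml1, a protease inhibitor of the alpha-2-macroglobulin family. It was at 59.0 and 53.8 CPM in HET and 3.76 and 3.27 in HOM, which is 16.2-fold lower (SE of the log2 change 0.53, adjusted p = 0.00116), and at 19.7 and 23.6 in WT. Further large falls were of the adenylyl cyclase gene Adcy2 (4.21-fold lower), the lectin gene Lman1l (4.05-fold), the membrane protein genes Tmc5 (3.67-fold) and Sidt1 (3.58-fold), the arginase gene Arg1 (3.25-fold) and the small GTPase gene Rerg (2.70-fold). Adcy2 was at 5.07 and 7.08 CPM in HET and 1.76 and 1.2 in HOM, and Sidt1 at 6.13 and 5.95 in HET and 1.6 and 1.74 in HOM. Myof, for the membrane repair protein myoferlin, was at 44.7 and 43.3 CPM in HET and 16.6 and 18.3 in HOM, with WT at 16.3 and 13.6 near HOM (adjusted p = 0.000319). Ckmt1, for mitochondrial creatine kinase, was at 29.0 and 27.8 CPM in HET and 13.4 and 15.5 in HOM, with WT at 19.7 and 18.9.

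The inhibitor comparison uses other libraries, 3 with SU5402 against 3 with DMSO, and SU5402 reaches every cell of the gland rather than the epithelium alone. There 3040 of the 13256 members (22.9%) were called. Of the 205 genes called between HET and HOM 112 (54.6%) were called with the inhibitor too, which is 3.68% of the inhibitor's calls, and 95 of them had the same direction. The inhibitor libraries were not matched in tissue content: mesenchymal sums were 2654 to 2712 CPM with DMSO and 4216 to 5911 with SU5402. The part of that shift in the differences was not tested.

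The change from HET to HOM differed from the change with SU5402 in 438 members (3.3%), 186 of them toward a more positive and 252 toward a more negative value in the deletion. Among the 205 called genes 68 differed. The count was 245 without HET replicate 1, 150 without HET replicate 2, 158 without HOM replicate 1, 91 without HOM replicate 2, 275 without DMSO replicate 1 and 230 without SU5402 replicate 1. Etv4 rose by 0.58 with the deletion and fell by 1.21 with the inhibitor, a difference of 1.79 (SE 0.16, adjusted p = 2.13e-05). Etv5 rose by 0.56 and fell by 0.73, a difference of 1.30 (adjusted p = 0.000399). Etv1 fell in both, by 0.85 and 1.28, and the difference of 0.43 did not pass (adjusted p = 0.336). Kit, at 0.01 between HET and HOM, fell by 1.06 with SU5402, and the difference of 1.07 passed (adjusted p = 0.00114).

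Further genes went opposite ways. Sema3b rose by 0.67 with the deletion and fell by 1.01 with the inhibitor. Crispld2 rose by 1.58 and fell by 1.49. Lamb3 fell by 0.85 with the deletion and rose by 0.66 with the inhibitor, and Pdgfb fell by 1.25 and rose by 0.85. Cftr fell by 1.28 with the deletion and was at -0.01 with the inhibitor, a difference of -1.27 (adjusted p = 0.00697). For Ocln, Cgn, Pkp2 and Krt8 the difference did not pass, at -0.10, 0.15, -0.31 and 0.03. Krt19 was at -0.59 with the deletion, which did not pass, and rose by 0.65 with the inhibitor, and the difference of -1.25 passed (adjusted p = 0.0412). That of Krt7, at -0.77 with the deletion and 0.74 with the inhibitor, passed too (adjusted p = 0.0247). Of the 26 ductal genes none rose and 5 fell with the deletion, while 6 rose and 7 fell with SU5402, with list medians of -0.71 and 0.25. Of the 26 FGF/ERK genes 15 fell with SU5402, and the median there was -0.41.

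**Figure D5:**
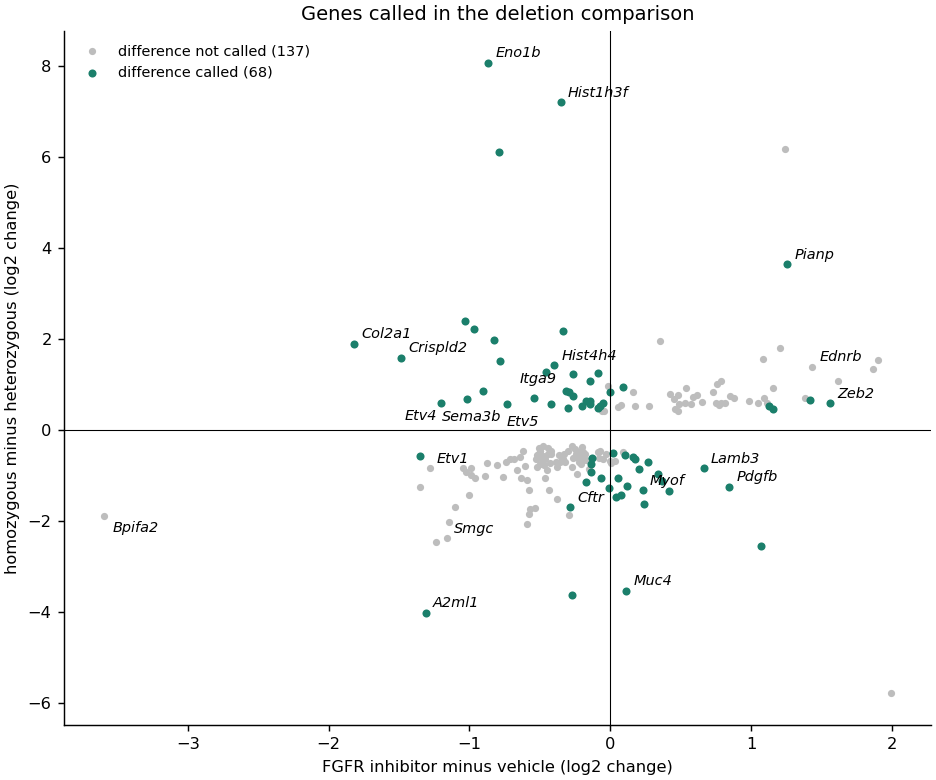
Log2 change from HET to HOM (y axis) against log2 change from DMSO to SU5402 (x axis) for the 205 members called between HET and HOM. Green points are the 68 genes whose 2 changes differed by the test, Etv4, Etv5, Sema3b and Crispld2 in the upper left and Lamb3 and Pdgfb in the lower right.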

How the data were processed

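RNA of 12 libraries was sequenced after ribosomal RNA depletion. The deposited table holds raw counts per Ensembl gene. Per the submitters' processing notes, bcl2fastq and STAR were used with GRCm39. The sources used here do not name the counting program, its strand setting or the annotation. Symbols, gene types and chromosomes were taken from GENCODE M21 (GRCm38), which matched 52489 of 52636 identifiers, so no gene coordinates of the files are printed.

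Counts were filtered with filterByExpr (minimum count 10), scaled by TMM and fitted with edgeR 4.0.16 in R 4.3.3, using the quasi-likelihood test with 1 coefficient for each of the 5 groups and all 12 libraries. P-values were adjusted by Benjamini-Hochberg over all 15859 genes tested and called below 0.05, then counted over 13256 autosomal protein-coding genes. CPM are TMM-scaled, and standard errors (SE) are the log2 change divided by the square root of F. The fit was tested on simulated data, where it called 40% of the genes changed 1.5-fold and 64% of those changed 2-fold. The HET and HOM libraries held 11679114 to 22322182 counts, 22.1 to 24.3% of them ribosomal and 3.93 to 8.63% mitochondrial. The labels put all libraries in batch 1. Within HET and HOM, replicates differed by more than sampling noise.

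The members and lists were chosen with earlier results of these data known, and 4 of the lists were added after the values had been seen. Genes were named by rule: a panel of 30, the 12 largest rises and falls among calls at 5 CPM or more, up to 5 members per list and 6 per direction of the difference test. A gene that this rule names is not reported here. A few further list members, among them Galnt7, Fut10, Rab11fip1, Krt7, Scnn1a, Cldn3, Cldn7, Dsg3, Dcpp1, Fgf10, Vim and Rab27a, were named after their values were seen. Alternatives were other scalings, filters, sets of libraries, a replicate block, sex as a covariate, DESeq2 1.42.0, limma-voom 3.58.1 and leaving out each library. Reported counting intervals cover counting error only.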

Additional observations from a re-analysis of the deposited data

Results flagged for a closer look

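The naming rule took 12 genes called between HET and HOM that also passed a test of the difference from the change with SU5402. That all 12 differed was thus fixed by the choice. On the log2 scale the difference was 8.93 for Eno1b, 1.82 for Hist4h4, 1.79 for Etv4, 1.68 for Sema3b, 1.24 for Itga9 and 3.07 for Crispld2. It was -1.56 for Myof, -1.51 for Lamb3, -2.10 for Pdgfb, -1.30 for Ckmt1, -1.51 for Eif3j2 and -1.27 for Cftr. By this test of the difference, Cftr and Eif3j2 were no longer called without HOM replicate 2, and the others were called in every fit that was run. In HOM against HET itself, only Eno1b, Hist4h4 and Myof of these genes kept their call whichever HET or HOM library was left out.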

How the results depend on the processing

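Between HET and HOM 205 genes were called. The count was 106 with library totals, 4258 with scaling to the pan-epithelial list, 584 with no filter on low counts, 421 with HET and HOM libraries alone, 453 with WT, HET and HOM libraries alone, 313 with limma-voom and 31 with sex as a covariate. It ranged from 16 to 77 without 1 HET or HOM library, where the lone library left is assumed to vary like the other groups. The difference from the inhibitor was called for 438 genes, for 216 with library totals, 262 with scaling to the pan-epithelial list and 1016 with no filter, and for 91 to 245 without 1 HET or HOM library and 230 to 584 without 1 DMSO or SU5402 library, an alternative chosen after seeing the data. The replicate numbers do not pair the libraries (same-numbered HET and HOM deviations correlated at 0.0437), and a replicate block gave 169 calls between HET and HOM and 294 for the difference. DESeq2 gave 298 and 595. No called gene named here changed sign in any fit. Uncalled genes that changed sign were Cdh1 (0.00761), Dcpp1 (0.26), Fgfr2 (0.34), Rab27a (0.21), Sox9 (0.15) and Spry1 (0.34) with pan-epithelial scaling, Cdh3 (-0.013) with sex, Fgfr2 (0.0489) and Spry1 (0.0577) with library totals, and Fgfr2 (0.0293) and Spry1 (0.0223) without the filter. Without 1 HET or HOM library Dcpp1 ranged from -0.28 to 0.0897, Fgfr2 from -0.12 to 0.0912, Kit from -0.00485 to 0.0312 and Spry1 from -0.11 to 0.0764. The cause of these changes was not tested. With 2 libraries a group an exact permutation test of a single value cannot go below p = 0.333.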

Other observations

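The share of members called ran from 0.459% on chromosome 17 to 3.56% on chromosome 13, and was 3.23% on chromosome 16, 2.86% on chromosome 18 and 1.92% on chromosome 6. Within 2 of these chromosomes called members lay in stretches chosen after their values were seen and ordered by GENCODE M21. On chromosome 13, 10 of the 40 tested members from Hist1h4m to Hist1h3a were called (25%), and all 10 rose. On chromosome 6, 7 of the 71 tested members from Pianp to Rerg were called (9.86%): Pianp, Hebp1 and Hist4h4 rose, and Ncapd2, A2ml1, Fam234b and Rerg fell. Over all members 1.55% were called. The strain background of the HET, HOM and WT glands is not given in the sources used here, and its part in these differences was not tested.

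Clu, which encodes the secreted chaperone clusterin, was at 23.0 and 25.9 CPM in HET and 9.84 and 9.31 in HOM, and was named after its value was seen (log2 change -1.36, edgeR adjusted p = 0.02). Trim12a, of the antiviral TRIM cluster, was at 1.89 and 2.17 CPM in HET, had no count in HOM replicate 1 and was at 0.0414 CPM in HOM replicate 2, and both WT libraries were at 0.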
